A study of Mus musculus with 2 samples.

Results

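The miRNA genes known as enriched in adult kidney, Mir192, Mir194-1, Mir194-2, Mir215 and Mir204, were examined in the embryonic kidney of the mouse. They were listed by name from knowledge of the adult organ, with earlier results of these data already known. All 5 of the 5 listed genes had a line among the 1973 miRNA genes of the files. RNA shorter than 30 nt from healthy B6NCrl kidneys at embryonic day 15.5 (E15.5) was made into libraries and sequenced. There was 1 group with 2 biological replicates, and male and female embryos were pooled for each, 78 embryos for replicate 1 and 62 for replicate 2. No genotype, treatment, second age or second tissue is part of the design, so the values describe the E15.5 kidney and the spread between 2 libraries. Each pool gave 1 library, so differences between pools and between library preparations cannot be told apart. A pool averages all cell types of the organ, and fewer cells that express a miRNA cannot be told apart from less of it per cell.

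A miRNA gene is transcribed as a longer RNA from which a hairpin is cut, and the hairpin yields a mature strand from its 5′ arm (5p) and another from its 3′ arm (3p). The mature strand binds messenger RNAs mainly through its seed, the bases 2 to 8, and lowers their translation and stability. miR-192 and miR-194 are made together from a shared transcript, as are miR-215 and the other copy of miR-194. In adults both pairs are known from epithelium of the kidney, liver and intestine. miR-204 is known from kidney epithelium and from the eye and choroid plexus, and its gene lies within Trpm3, which encodes an ion channel. Its paralog miR-211 lies within the related gene Trpm1.

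The mature 5p sequences show which of these genes could act on the same messages. They come from RefSeq (GRCm38.p6, the assembly also called mm10), where all 6 genes looked for, Mir211 included, were found. They are written 5′ to 3′ with the seed in capitals.
miR-192-5p: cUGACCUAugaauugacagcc
miR-215-5p: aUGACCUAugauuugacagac
miR-194-5p: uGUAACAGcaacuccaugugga
miR-204-5p: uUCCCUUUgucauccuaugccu
miR-211-5p: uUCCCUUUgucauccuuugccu

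miR-192-5p and miR-215-5p carry the same seed and were identical at 18 of 21 positions. Counted from 1 at the 5′ end, with the base of miR-192-5p first, they differed by C1A, A12U and C20A, all outside the seed. No other mature miRNA in the RefSeq table had this seed. miR-204-5p and miR-211-5p were identical at 21 of 22 positions and differed by A17U, with the base of miR-204-5p first. Their seed was shared with 1 more entry, miR-7670-3p. The seed of miR-194-5p was found in miR-194-5p alone.

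The hairpins of the 2 Mir194 genes matter for reading their counts, because both encode the same 5p strand. They are shown with their longest shared run in capitals.
Mir194-1: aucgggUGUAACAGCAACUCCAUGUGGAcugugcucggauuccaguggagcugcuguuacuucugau
Mir194-2: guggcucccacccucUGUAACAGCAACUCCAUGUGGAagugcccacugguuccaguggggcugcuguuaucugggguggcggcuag

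The shared run was 22 bases long and was the annotated miR-194-5p itself. A read that lies within that strand therefore matches both genes. The files keep reads that match several loci apart, in no gene's count, at 27.1% of reads in replicate 1 and 26.6% in replicate 2. The 3p strands of the 2 genes differed at 4 of 22 positions, A8G, C19U, U20C and C22G, with the base of miR-194-1-3p first. The values of Mir194-1 and Mir194-2 can thus hold 3p reads and 5p reads that run past the shared strand, and stand below the level of miR-194 by an amount that was not measured. Each mature strand of Mir192, Mir215 and Mir204 occurred in a single hairpin of the 2202 searched, and miR-204-5p came within 1 mismatch of the Mir211 hairpin. The longest run shared by Mir204 and Mir211 was 17 bases, and that of Mir192 and Mir215 was 10 bases.

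By GENCODE M21 on mm10, Mir194-2 (ENSMUSG00000065582.1) lies at chr19:6264643-6264728 and Mir192 (ENSMUSG00000065523.1) at chr19:6264844-6264932. Both are on the + strand with 115 bases between the hairpins, and no other annotated gene overlaps them. Mir194-1 (ENSMUSG00000065581.1) at chr1:185313319-185313385 and Mir215 (ENSMUSG00000065562.1) at chr1:185313581-185313692 are also on the + strand, with 195 bases between them. They lie within the long non-coding RNA gene 2010103J01Rik on the same strand, Mir194-1 in an intron and Mir215 in an exon. Both also lie opposite to an intron of Iars2, which encodes the mitochondrial isoleucyl-tRNA synthetase. Mir204 (ENSMUSG00000065507.2) lies at chr19:22750605-22750672 in an intron of Trpm3, on the strand of its host. Mir211, at chr7:64205806-64205911, is placed in the same way within Trpm1.

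**Figure D1:**
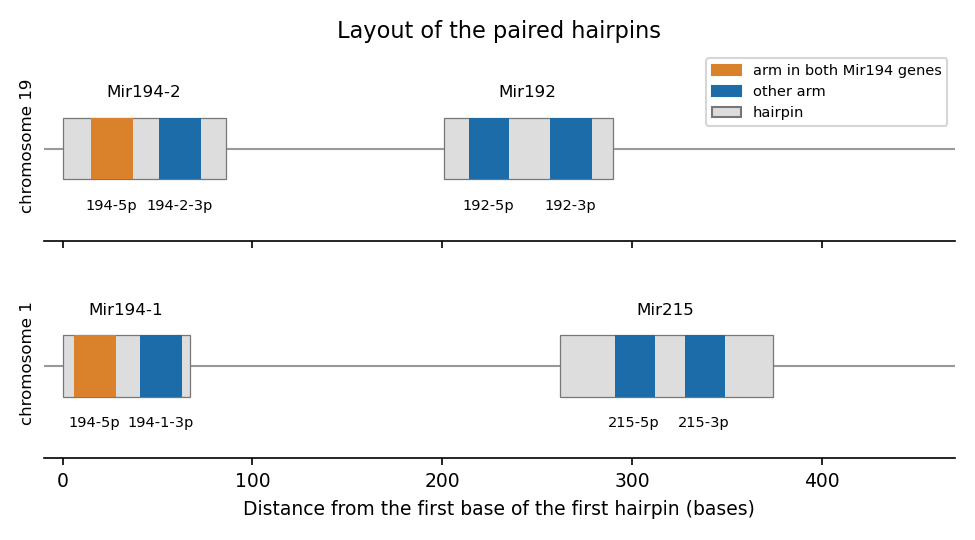
Hairpins (grey) and mature arms (coloured) of the chromosome 19 pair and the chromosome 1 pair, drawn to scale against the distance in bases from the first base of the first hairpin. The arm in orange, miR-194-5p, has the same sequence in both pairs, and 115 bases separate the hairpins on chromosome 19 against 195 on chromosome 1.

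All 5 genes were detected, and the counts assigned to each were far below those of the leading miRNAs of the tissue. Their levels are given as CPM, own-strand reads scaled to a library total of 1000000 reads in miRNA genes, which came from 7434182 such reads in replicate 1 and 5863293 in replicate 2. Each of the 5 reached 1 CPM in both libraries, as did 394 of the 1973 genes of the files (20%). Together they held 0.0516% of counts in replicate 1 (95% exact Clopper-Pearson interval 0.0499 to 0.0532) and 0.0366% in replicate 2 (0.0351 to 0.0382), a mean of 0.0441% ± 0.0106 (SD, n = 2). Such intervals cover counting error only. Reads within miR-194-5p are in neither Mir194 count, so the levels and ranks of these genes and the summed share are lower limits. How far miR-194 itself lies below the leading miRNAs cannot be read from these counts.

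Mir204 was the highest of the 5. It had 1739 reads in replicate 1 and 979 in replicate 2, or 234 and 167 CPM. Its mean of 200.4 ± 47.3 CPM (SD, n = 2) put it at rank 140. Mir204 alone made up 45.4% of the reads of the 5 genes in replicate 1 and 45.6% in replicate 2, a share that differed by less than its counting intervals (43.8 to 47.0 and 43.5 to 47.7).

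Mir192 came next, with 1426 and 695 reads, or 192 and 119 CPM. Its mean was 155 ± 51.8 CPM at rank 156. The levels of Mir192 and Mir204 overlapped between libraries, since Mir192 in replicate 1 was above Mir204 in replicate 2. Within each library Mir204 was the higher, by 1.22 times in replicate 1 (95% exact interval 1.14 to 1.31) and by 1.41 times in replicate 2 (1.28 to 1.55). Mir194-2, the neighbour of Mir192, had 582 and 402 reads, or 78.3 and 68.6 CPM, with a mean of 73.4 ± 6.88 CPM at rank 194.

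The pair on chromosome 1 was much lower. Mir215 had 72 and 59 reads, or 9.68 and 10.1 CPM, with a mean of 9.87 ± 0.267 CPM at rank 283. Mir194-1 had 14 and 13 reads, or 1.88 and 2.22 CPM, with a mean of 2.05 ± 0.236 CPM at rank 365. Its interval in replicate 1 was 1.03 to 3.16 CPM, which lies above the 0.404 CPM that a count of 0 allows there, and in replicate 2 it was 1.18 to 3.79 CPM against 0.512 CPM. Below Mir192 and Mir204 the values of neighbours in this order did not overlap between libraries.

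A read covers much of a mature strand, so counts were not divided by hairpin length. Per 100 bases of hairpin the order was the same, with mean values of 295 CPM for Mir204, 174 for Mir192, 85.4 for Mir194-2, 8.82 for Mir215 and 3.06 for Mir194-1. The counts are per hairpin and do not separate 5p from 3p reads.

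**Figure D2:**
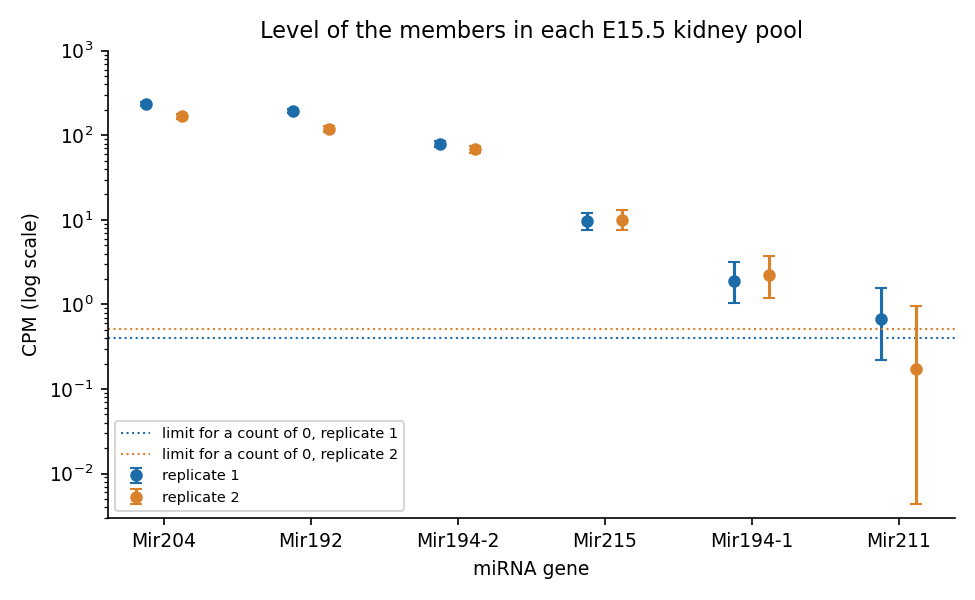
CPM on a log scale of the 5 genes and of Mir211 in each library, with 95% exact Clopper-Pearson intervals and, dotted, the level that a count of 0 allows. The order from Mir204 down to Mir194-1 is the same in both libraries, and Mir211 lies near the dotted lines at 0.673 and 0.171 CPM.

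The paralogs were unequal in each case. Mir192 exceeded Mir215, which has its seed, by 19.8 times in replicate 1 (95% exact interval 15.6 to 25.5) and by 11.8 times in replicate 2 (9.02 to 15.6). Mir192 and Mir215 together reached 202 and 129 CPM, and nearly all of it came from Mir192. Mir194-2 exceeded Mir194-1 by 41.6 times in replicate 1 (24.6 to 76.5) and by 30.9 times in replicate 2 (17.9 to 58.6), as far as reads could be placed at either gene. The 2 Mir194 genes summed to 80.2 and 70.8 CPM.

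Mir211, the paralog of Mir204, had 5 reads in replicate 1 and 1 in replicate 2. The ratio of Mir204 to Mir211 was 348 in replicate 1 (149 to 1072) and 979 in replicate 2 (175 to 38707), so its size is known only within wide limits. Mir7670, the other gene with this seed, had 2 reads and 1 read.

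The chromosome 19 pair as a whole held 270.1 CPM in replicate 1 and 187 CPM in replicate 2. The chromosome 1 pair held 11.6 and 12.3 CPM. Within the chromosome 19 pair, reads of Mir192 outnumbered those of Mir194-2 by 2.45 times in replicate 1 (2.22 to 2.70) and by 1.73 times in replicate 2 (1.53 to 1.96). These intervals did not overlap. They cover counting error only, with 1 library per pool, so they set these libraries apart and do not measure the spread between pools. The ratios do not depend on how the libraries are scaled. Within the chromosome 1 pair, Mir215 outnumbered Mir194-1 by 5.14 times (2.88 to 9.87) and 4.54 times (2.46 to 9.02), intervals that overlap over most of their range. Since reads within miR-194-5p match both Mir194 genes, neither ratio is one of mature miRNAs.

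**Figure D3:**
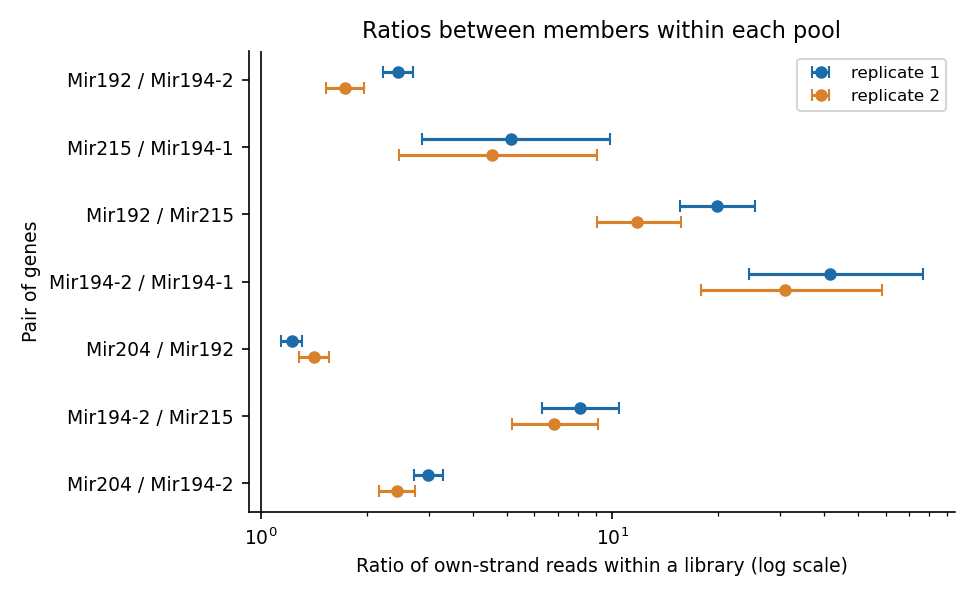
Ratio of own-strand reads between pairs of the 5 genes within each library, on a log scale, with 95% exact intervals. The intervals of Mir192 over Mir194-2 lie apart, from 2.22 to 2.70 in replicate 1 and from 1.53 to 1.96 in replicate 2. Those of the other 6 ratios drawn overlap between libraries, which does not show that the ratios are equal. Mir192 over Mir215 (15.6 to 25.5 and 9.02 to 15.6) overlaps only at the ends, as does Mir204 over Mir194-2 (2.72 to 3.29 and 2.17 to 2.74).

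In the ranking by mean CPM the 5 genes lay between ranks 140 and 365. Mir10a, the most abundant gene, exceeded Mir204 by 768 times and Mir192 by 992 times in mean CPM. Next to Mir204 in level were Mir350 at 212 ± 38.4 CPM and Mir300 at 207 ± 42.9 CPM above it, with Mirlet7a-2 at 199 ± 66.5 CPM and Mir363 at 197 ± 35.2 CPM below it (SD, n = 2 each). All 4 overlapped Mir204 between libraries. Mir192 stood between Mir27a at 159.9 ± 11.4 CPM and Mir665 at 152 ± 29.8 CPM, with Mir598 and Mir185 beyond them. Mir194-2 had Mir128-1 and Mir7-1 above it and Mir667 and Mir675 below it. Mir215 lay between Mir378c and Mir1249 above and Mir450-2 and Mir3057 below, and Mir194-1 between Mir5133 and Mir511 above and Mir217 and Mir365-2 below. Mirlet7a-2, Mir27a, Mir128-1, Mir7-1, Mir378c, Mir450-2 and Mir365-2 share a stretch of 20 nt with another miRNA gene, and any read within it is missing from their counts.

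**Figure D4:**
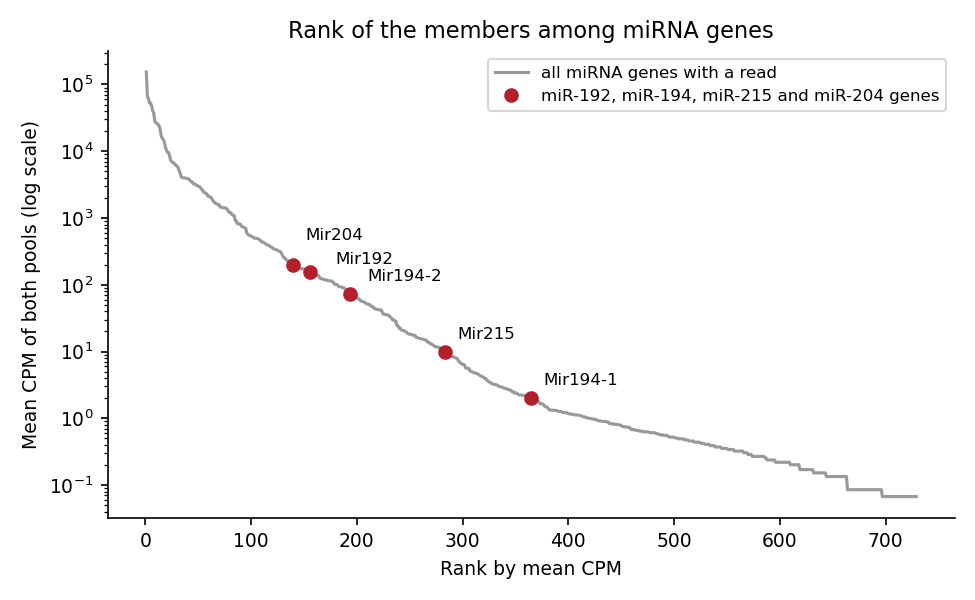
Mean CPM of both libraries on a log scale against rank for each miRNA gene with a read (grey line), with the 5 genes as red points. Mir204, Mir192 and Mir194-2 lie at ranks 140, 156 and 194, and Mir215 and Mir194-1 at ranks 283 and 365.

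A list of 17 other miRNA genes for nephron and kidney epithelium, all of them in the files, was set beside the 5 genes. It also holds genes not particular to this epithelium, Mir377, Mir802, Mir217 and Mir216a among them. Counts over the list are thus not counts of epithelial markers alone. The list held 28.5% of counts in replicate 1 and 25.9% in replicate 2, most of it from Mir10a at 153990 ± 18740 CPM and Mir10b at 61579 ± 5289 CPM, the miRNAs of the Hoxb and Hoxd clusters. The miR-30 genes, known from podocytes and tubules, reached 17235 ± 3754 CPM for Mir30e. Among the genes of the epithelial miR-200 family Mir429 led at 13878 ± 1610 CPM. Mir204 lay below Mir10a, Mir10b, Mir30e, Mir429, Mir30a, Mir200c, Mir30d, Mir200b and Mir200a. It also lay below Mir141, the lowest of these, at 518 ± 71.3 CPM. It lay above Mir30c-1 at 93.9 ± 10.7 CPM, Mir30b at 90.8 ± 22.7 CPM and Mir30c-2 at 53.4 ± 8.61 CPM. Mir377 at 39.3 ± 13.7 CPM and Mir802, known from liver and kidney, at 5.09 ± 1.17 CPM were also below Mir204. Mir30c-1 and Mir30c-2 share a stretch of 20 nt with another miRNA gene, and any read within it is missing from their counts. Mir217, known from pancreas, had 21 and 7 reads, and Mir216a, its neighbour, had 0. The stromal list summed to 2.88% and 3.39% of counts, led by Mir143 at 26816 ± 3111 CPM and Mir214 at 4129 ± 523 CPM. Endothelial Mir126a stood at 48756 ± 1345 CPM (SD, n = 2 each).

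The most abundant of the 5 genes were lower in the second pool. Mir192 had a log2 ratio of replicate 2 over replicate 1 of -0.69 (95% exact binomial interval -0.83 to -0.56), which is 0.618 times the level. Its adjusted p was 1.16e-25 (exact binomial test, two-sided, Benjamini-Hochberg over the 378 genes whose counts averaged 10 or more). Mir204 had a log2 ratio of -0.49 (-0.60 to -0.37), or 0.714 times the level, with an adjusted p of 5.96e-17 by the same exact test. The test sets the reads of one library against the other, covers counting error only and compares these libraries, not conditions.

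The other 3 genes did not pass at an adjusted p of 0.05. Mir194-2 had a log2 ratio of -0.19 (-0.38 to -0.01; exact test, adjusted p = 0.0747), and it passed under 3 other scalings, with adjusted p-values from 0.000383 to 0.0214. The log2 ratio of Mir215 was 0.06 (-0.47 to 0.57; exact test, adjusted p = 0.894) and changed sign with TMM (-0.07) and DESeq2 size factors (-0.10). Mir194-1 had a log2 ratio of 0.24 (-0.97 to 1.43; exact test, adjusted p = 0.778). The value of Mir192, -0.69, lies within the interval of Mir194-1 and outside that of Mir215.

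These calls are read against the background. Of all 378 genes tested, 211 (55.8%) passed in either direction and 59 (15.6%) were lower in replicate 2, against 2 of the 5 genes in either count. Another 152 of the 378 were higher, against 0 of the 5. Of the 378 genes, 23 (6.08%) passed with a fold of at least 2, and of the 5 genes 0 did. The median log2 ratio was -0.19 over the 5 genes and 0.15 over all genes tested. TMM and DESeq2 size factors lowered every log2 ratio by 0.13 and 0.16, which brought the share of higher genes among the calls from 72.0% to 49.5% and 46.2%. With them Mir192 stood at -0.82 and -0.85 and Mir204 at -0.61 and -0.65.

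Only 12 of the 378 genes tested had a lower log2 ratio than Mir192, and 24 had a lower one than Mir204. Among the 264 genes whose counts averaged 100 or more, those nearest to Mir192 in this ratio were Mir208b at -0.78, Mir181a-1 at -0.79, Mir33 at -0.54, Mir206 at -0.54 and Mir3105 at -0.54. The likeness is the absolute difference of log2 ratios, from 0.08 to 0.16, over 2 libraries. Mir181a-1 shares a stretch of 20 nt with another miRNA gene.

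The epithelial list did not move as a block between the libraries. Of its 16 genes tested, 7 were higher and 7 lower in replicate 2 by the same exact test, with a median log2 ratio of -0.19. Beside these and the stromal counts below, 152 of all 378 genes tested were higher and 59 lower. The higher genes were Mir377 (0.73), which is not particular to epithelium, Mir30a (0.56), Mir30d (0.497), Mir30e (0.45), Mir30c-2 (0.33), Mir30c-1 (0.23) and Mir200c (0.05). The lower genes were Mir30b (-0.52), Mir200b (-0.43), Mir141 (-0.28), Mir10a (-0.25), Mir429 (-0.24), Mir200a (-0.20) and Mir10b (-0.18). Of the stromal genes tested, 3 of 5 were higher and 0 lower, Mir143 by 0.24 and Mir214 by 0.26. The single endothelial gene, Mir126a, was lower by a log2 ratio of -0.06.

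**Figure D5:**
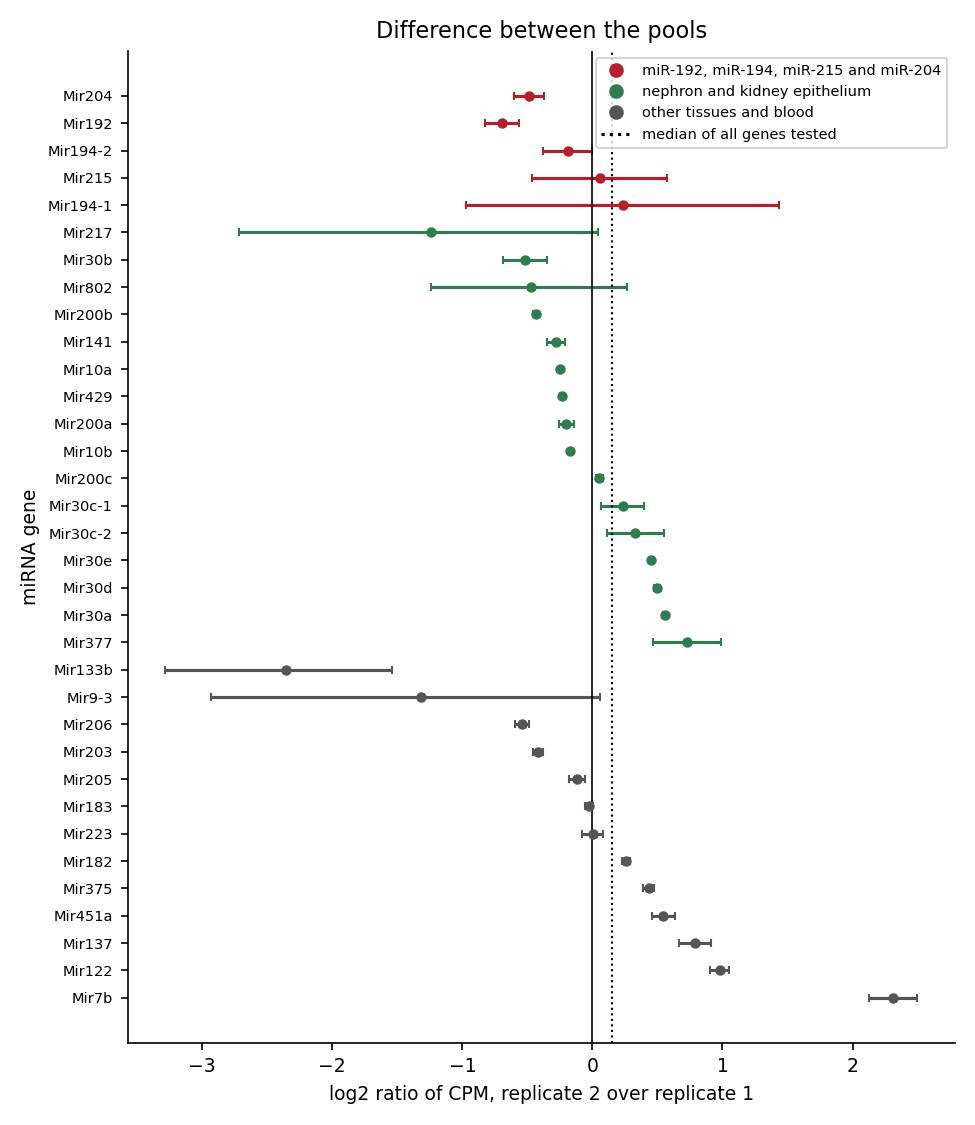
Log2 ratio of CPM, replicate 2 over replicate 1, with 95% exact binomial intervals, for the 5 genes (red), the tested genes of the epithelial list (green) and named markers of other tissues and blood (grey). The dotted line is the median of all genes tested, 0.15; Mir192 and Mir204 lie to the left of it and of 0, and Mir122 lies to the right of both.

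Markers of tissues beside the kidney moved between the libraries too, in both directions. Liver and intestine also make miR-192 and miR-194 in adults, and whether such tissue was in the pools was not tested. Hepatic Mir122 had 319 CPM in replicate 1 and 628 CPM in replicate 2, a log2 ratio of 0.98. The list for gut, pancreas and other endocrine tissue summed to 1343 and 1975 CPM, led by Mir375 and Mir7b. In it 4 of 4 genes were higher in replicate 2, against 152 of all 378 genes tested. Of these, Mir7-1 and Mir7-2 share sequence with other miRNA genes.

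The eye is among the other known sites of miR-204. The list for eye and sensory organs summed to 5468 and 5782 CPM, nearly all from Mir182, Mir183 and Mir96. In it 1 of 3 tested genes was higher and 1 lower, against 152 and 59 of all 378 genes tested. Mir211, also in this list, had 5 reads in replicate 1 and 1 in replicate 2, too few to be tested. Mir203 and Mir205, of surface and squamous epithelium, summed to 2553 and 2021 CPM, with 2 of 2 lower in replicate 2. The 3 blood genes, Mir451a, Mir144 and Mir223, summed to 732 and 859.6 CPM, with 1 of 3 higher. The muscle list summed to 971 and 661 CPM, led by Mir206 and Mir133b, with 2 of 2 tested genes lower. Of its 5 genes in the files 3 were at 0, Mir1a-1, Mir133a-1 and Mir133a-2. The list for adrenal and neural tissue summed to 129 and 219 CPM, nearly all from Mir137, with 1 of 2 tested genes higher. Its Mir124a-1, Mir124a-2, Mir124a-3 and Mir9-2 were at 0. The genes at 0 in the muscle and the adrenal and neural lists share sequence with other miRNA genes. The part of these tissues in the values of the 5 genes was not tested.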

How the data were processed

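Raw counts of reads per miRNA gene were deposited for each library in 3 columns, for both strands, the own strand and the opposite strand. Per the deposited notes, the authors counted alignments to mm10 with the GENCODE M4 annotation. Which aligner and counter were run is "not given in the sources used here". Within the files, reads with lines of their own stayed out of library totals: those in no gene (2.57% and 4.05% of reads), those left unmapped (17.7% and 19.7%) and those matching several loci, with 0 ambiguous. Own-strand counts were used, which left out 2.16% and 2.33% of gene reads. Genes were matched without version number to GENCODE M21, which named 1894 of 1973. A gene shares sequence when a stretch of 20 nt, on either strand, recurs in a miRNA gene elsewhere (929 genes).

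The genes described and all lists were chosen with earlier results of these data known. The mean and SD are over 2 libraries. Ratios between genes of a library carry exact binomial intervals. The exact binomial test was tested on simulated data drawn with counting error only, so the simulation does not cover spread between pools. Named genes are the 5 genes, Mir211, the 2 highest of each list, the 2 genes above and the 2 below each of the 5 in mean CPM, and the 5 nearest to Mir192 in log2 ratio. The epithelial genes other than Mir10a and Mir10b, Mir7670, Mir96, Mir144, Mir7-1 and Mir7-2 as list members, and genes at 0 are not covered by that rule, and their choice followed sight of their values. The names Mir124-1, Mir124-2 and Mir124-3, listed beside the Mir124a names, matched no gene, and Mir9-1, Mir122b, Mir126b and Mir1a-2 were not analysed here. Alternatives were TMM factors (edgeR 4.0.16) and DESeq2 1.42.0 size factors in R 4.3.3, other totals and count filters, both strands summed, the Mir194 genes summed and each replicate left out. Python 3.11.15 with scipy 1.17.1, pandas 2.3.3, numpy 2.4.6 and matplotlib 3.10.9 was used.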

Additional observations from a re-analysis of the deposited data

Results flagged for a closer look

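Reads on the strand opposite to Mir194-1 numbered 1 in replicate 1 and 4 in replicate 2, and the count of 4 exceeds the 3 counts that a count of 0 allows. These reads are outside the own-strand values of the report, and no control sample exists. The other 4 genes had 0 opposite-strand reads in both libraries.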

How the results depend on the processing

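Another total or both strands summed moved 10 of 18 levels and shares by more than the SD between libraries. With all reads of a library as the total, the summed share was 0.0222%, and Mir204, Mir192, Mir194-2, Mir215 and Mir194-1 stood at 101, 78.2, 36.8, 4.93 and 1.02 per 1000000 reads. With Mir10a left out of the total, Mir194-2, Mir215 and Mir194-1 stood at 86.9, 11.7 and 2.42 CPM, and with both strands summed Mir194-1 stood at 2.40 CPM. The summed share lay between 0.0366% and 0.0516% with either replicate left out, and at 0.0365% without the Mir194 genes. The log2 ratio of Mir215 changed sign with TMM (-0.073) and DESeq2 size factors (-0.10), as these scalings lower every ratio. Mir194-2 passed with TMM, DESeq2 size factors and Mir10a left out of the total, so 3 of the 5 genes passed in place of 2. With the Mir194 genes summed their log2 ratio was -0.18 (exact test, adjusted p = 0.0878). Of 31 log2 ratios under alternatives, 26 kept their direction and side of the threshold. No paired analysis was possible because the samples form 1 group. Depth limits Mir194-1 most, whose 14 reads in replicate 1 place it between 1.03 and 3.16 CPM.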
